A study of Homo sapiens with 6 samples.

Results

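The genes described here are 10 that cells with too little oxygen are known to regulate: HIF1A, VEGFA, ADM, CA9, BNIP3, NDRG1, EGLN1, EGLN3, ANKRD37 and PDK1. A member was any gene of this set with an array feature that carried its symbol and no other symbol. 9 of the 10 had such a feature, out of 22411 genes with 1 and of 70523 features in all. No feature was matched to CA9, which was not analysed here. Each of the 9 measured genes had 1 feature, so no choice between features was made.

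RNA came from AC16, a human cell line made by fusing cells of adult ventricular heart tissue with transformed human fibroblasts. Cells of the hypothermia group were kept at 28 °C for 6 h, and cells of the control group were kept at 37 °C for 6 h, with CO2 set alike and with total RNA of each group hybridised to 3 Affymetrix arrays. The labels name no oxygen level, so temperature is the only stated difference. No source used here states that the 3 samples of a group were grown apart, and the p-values reflect only how far these samples spread, possibly for technical reasons.

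Hypoxia-inducible factor (HIF) is a transcription factor built from an oxygen-sensitive alpha subunit, encoded by HIF1A, and a stable partner, encoded by ARNT. While oxygen is plentiful, prolyl hydroxylases encoded by the EGLN genes mark the alpha subunit for capture by the VHL protein and for degradation, so that HIF is controlled mainly as a protein. When oxygen is short, as in heart muscle behind a blocked coronary artery, the alpha subunit escapes this mark, and HIF turns on genes for vessel growth, glucose use and mitochondrial turnover.

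VEGFA, the secreted growth factor that drives the sprouting of vessels, was the only one of the 9 measured genes that passed the test described below. It was higher at 28 °C by 1.38-fold, and it passed in 8 of 16 alternative settings. ADM had a lower and NDRG1 a higher mean at 28 °C with no overlap between the groups, but neither passed the test. The means of the other 6 genes differed by no more than 0.11 on the log2 scale, HIF1A and both EGLN genes among them. Of those 6, PDK1 and ANKRD37 were also lower without overlap, by small gaps. Among all features 9.38 percent were higher and 8.49 percent lower without overlap. With 1 feature per gene, 2574 of 22411 genes were higher and 3093 lower without overlap. Of the 9 log2 fold changes 2 were positive and 7 negative, beside 13364 positive and 9047 negative among all 22411 genes. The negative signs of HIF1A, EGLN1 and EGLN3 turned in some of the alternative settings described below.

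Each signal is the log2 value that the authors made with RMA, a method that subtracts background, brings the arrays to a common scale and combines a feature's probes into 1 value. Differences are log2 fold changes, 28 °C minus 37 °C, from limma, with Benjamini-Hochberg adjustment over the 70523 features and an adjusted p under 0.05 as the threshold. In this comparison 160 features (0.227 percent) were higher and 417 (0.591 percent) lower at 28 °C. With 1 feature per gene, 96 of 22411 genes (0.428 percent) were higher and 173 (0.772 percent) lower. Of the 9 measured members 1 was higher and 0 were lower, a result about VEGFA rather than about the set. The same limma fit at an unadjusted p under 0.05 called 2 members higher and 1 lower, and it called 5.41 percent of all features higher and 6.08 percent lower. The median log2 fold change was -0.07 over the 9 members (range -0.29 to 0.46), beside 0.03 over all features.

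HIF binds the letters ACGTG or GCGTG, so the promoter windows of the members were searched for both on either strand. Each window, from a RefSeq promoter table of the build GRCh38.p14, runs from 250 bases before to 50 bases after a transcript start. 7 of the measured members had a window there, and VEGFA and NDRG1 had none. These genes had 9 windows, of which 6 held a match, while 48.4 percent of the 35116 windows in the table held 1 or more. The stretches of 5 measured members with matches are shown because they hold the letters by which HIF recognises its targets. Capitals mark the matched letters, which read CACGT or CACGC where the match lies on the opposite strand, and CACGTG counts on both strands.
EGLN1, chr1:231422288-231422315, minus strand: gcggggccgtggtgtACGTGcagagcgc
ADM, chr11:10304957-10304991, plus strand: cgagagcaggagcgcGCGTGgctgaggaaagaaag
PDK1, chr2:172556058-172556089, plus strand: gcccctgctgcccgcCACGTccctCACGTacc
BNIP3, chr10:131982008-131982081, minus strand: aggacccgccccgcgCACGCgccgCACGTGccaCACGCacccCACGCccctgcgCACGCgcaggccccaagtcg
ANKRD37, chr4:185396664-185396717, plus strand: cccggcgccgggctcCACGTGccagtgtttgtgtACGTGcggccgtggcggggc
BNIP3 held 6 matches, a number that 0.923 percent of windows reached or passed, and ANKRD37 held 3, reached or passed by 10.1 percent. EGLN1 and ADM held 1 each, PDK1 held 2 in 1 of its 2 windows, and the EGLN3 window held none. All of these matches lay before the transcript start. A match describes the letters in a window and does not show that HIF binds there, and a window without a match says only that these letters are not in it.

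HIF1A, the oxygen-sensitive subunit, had log2 signals of 9.89, 9.83 and 9.77 in the 3 hypothermia arrays and of 9.87, 10.1 and 9.74 in the 3 control arrays. The groups overlapped, and control replicate 2 stood above every other array. The means were 9.83 ± 0.0564 at 28 °C and 9.90 ± 0.176 at 37 °C (SD, n = 3 each), and the difference of -0.07 had a 95% interval of -0.29 to 0.15 (limma, adjusted p = 0.8). Without control replicate 2 the difference was 0.02, so its sign rested on that array. These are transcript levels, and the HIF1A protein was not measured here.

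EGLN1 encodes the prolyl hydroxylase that does most of the oxygen sensing in many cells. Its signals were 7.42, 7.36 and 7.32 at 28 °C and 7.41, 7.56 and 7.34 at 37 °C. Control replicate 2 was again the highest array, and the groups overlapped. The difference was -0.07 with a 95% interval of -0.24 to 0.10 (limma, adjusted p = 0.758). EGLN3, a hydroxylase of the same family that HIF itself induces, had signals of 2.59, 2.57 and 2.65 at 28 °C and of 2.60, 2.52 and 2.69 at 37 °C. The groups overlapped, and the difference was -0.003 with a 95% interval of -0.16 to 0.16 (limma, adjusted p = 0.992). The median background feature of each array lay between 2.47 and 2.60, so whether EGLN3 was above background in either group was not determined, and its small difference is no measure of a steady level.

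VEGFA (feature TC06000608.hg.1) had signals of 7.01, 6.92 and 6.90 at 28 °C and of 6.51, 6.40 and 6.52 at 37 °C. All hypothermia arrays lay above all control arrays, and the lowest hypothermia array stood 0.37 above the highest control array. The means were 6.94 ± 0.0607 at 28 °C and 6.48 ± 0.0682 at 37 °C (SD, n = 3 each). The log2 fold change was 0.46 with an SE of 0.07 and a 95% interval of 0.30 to 0.62 (limma, adjusted p = 0.0293), or 1.38-fold with an interval of 1.23 to 1.54. It was positive in each of the 16 alternative settings, between 0.42 and 0.49, and passed the threshold in 8 of them. Leaving out any of the 3 hypothermia arrays, control replicate 1 or control replicate 2 ended the call, with adjusted p-values between 0.0857 and 0.134 (limma), whereas without control replicate 3 it held at 0.0391.

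ADM (feature TC11000182.hg.1) encodes adrenomedullin, a secreted peptide that widens vessels and that heart muscle makes under strain. Its signals were 7.41, 7.49 and 7.43 at 28 °C and 7.77, 7.70 and 7.73 at 37 °C. All hypothermia arrays lay below all control arrays, with 0.21 between the nearest. The means were 7.44 ± 0.0397 at 28 °C and 7.73 ± 0.0356 at 37 °C (SD, n = 3 each), and the log2 fold change of -0.29 had an SE of 0.06 and a 95% interval of -0.43 to -0.15. The adjusted p of 0.101 (limma) missed the threshold, and it passed in 1 of the 16 alternatives, with arrays weighted by their quality (adjusted p = 0.0406, limma). The secreted vessel factors VEGFA and ADM thus had differences of opposite sign, of which that of VEGFA passed and that of ADM did not.

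NDRG1 (feature TC08001659.hg.1) encodes a cytoplasmic protein that rises with stress and low oxygen in many cell types. It had signals of 6.90, 6.91 and 7.00 at 28 °C and of 6.71, 6.66 and 6.74 at 37 °C. The groups did not overlap, with 0.16 between the nearest arrays. The means were 6.94 ± 0.0588 at 28 °C and 6.70 ± 0.0395 at 37 °C (SD, n = 3 each), and the log2 fold change was 0.23 with an SE of 0.06 and a 95% interval of 0.09 to 0.38. It did not pass (limma, adjusted p = 0.202), nor did it pass in any of the 16 alternatives.

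**Figure D1:**
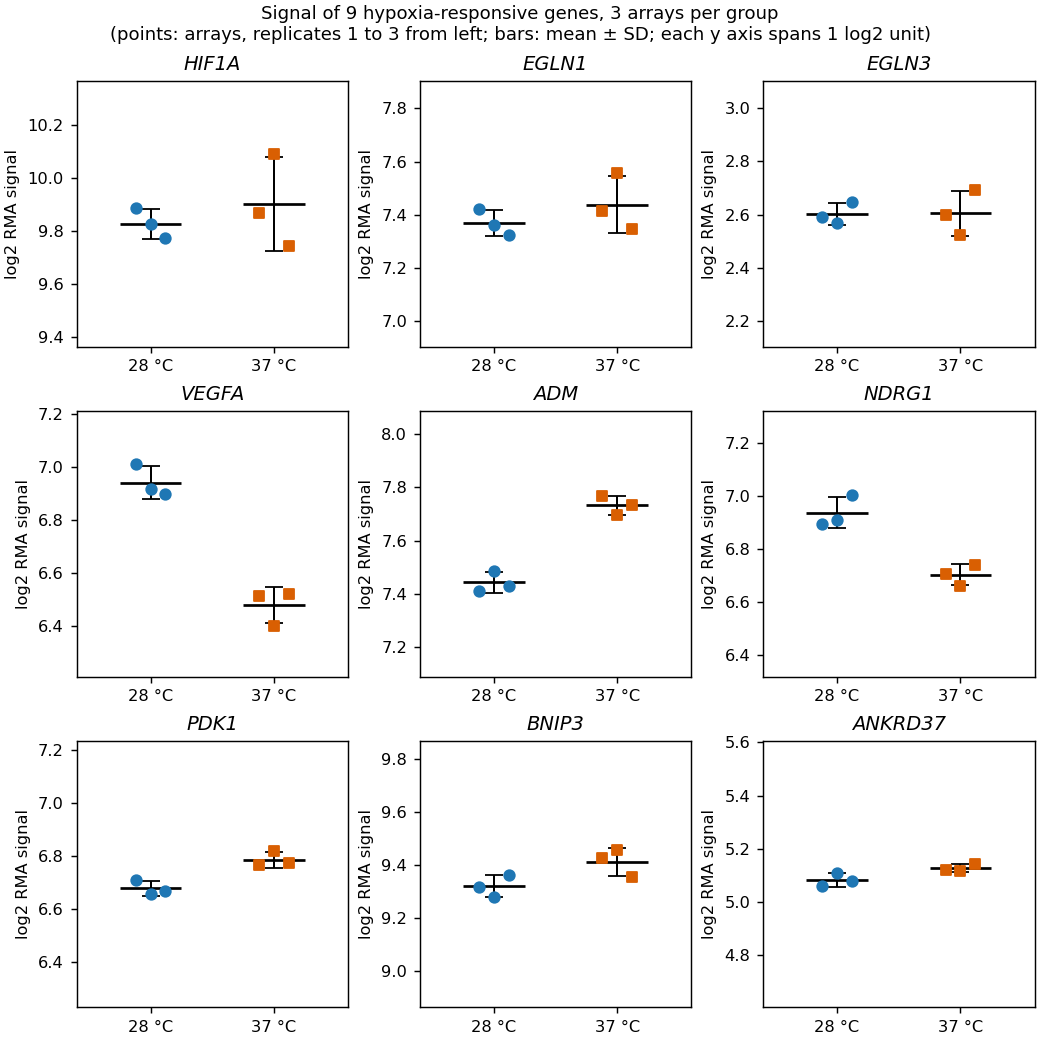
Log2 RMA signal of the 9 measured hypoxia-responsive genes, with hypothermia (28 °C, circles) left of control (37 °C, squares), 1 point per array and bars for the mean ± SD of 3 arrays. Each vertical axis spans 1 log2 unit around the gene's own mean. The hypothermia arrays of VEGFA and NDRG1 all lie above the control arrays. Those of ADM all lie below them, as do those of PDK1 and ANKRD37 by smaller gaps (0.06 and 0.009). Control replicate 2 is the highest point of HIF1A, EGLN1, PDK1 and BNIP3.

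PDK1 encodes a kinase that switches off pyruvate dehydrogenase. Its signals were 6.71, 6.66 and 6.67 at 28 °C and 6.76, 6.82 and 6.77 at 37 °C. The hypothermia arrays all lay below the control arrays, by 0.06 at the nearest. The difference was -0.11 with a 95% interval of -0.25 to 0.03 (limma, adjusted p = 0.541). BNIP3, a receptor in the outer mitochondrial membrane that marks mitochondria for removal, had signals of 9.32, 9.28 and 9.36 at 28 °C and of 9.43, 9.46 and 9.35 at 37 °C. The groups overlapped, and the difference was -0.09 with a 95% interval of -0.24 to 0.05 (limma, adjusted p = 0.621). BNIP3 is the measured member with the most matches among the sequences above. ANKRD37, an ankyrin repeat protein whose gene is a direct HIF target, had signals of 5.06, 5.11 and 5.08 at 28 °C and of 5.12, 5.12 and 5.14 at 37 °C. The groups did not overlap, but only 0.00866 separated the nearest arrays, and the difference was -0.04 with a 95% interval of -0.18 to 0.09 (limma, adjusted p = 0.804).

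Over the 9 measured members, the arrays of the groups did not overlap for 5, of which 2 were higher at 28 °C (VEGFA and NDRG1) and 3 lower (ADM, PDK1 and ANKRD37). Among all features 9.38 percent were higher and 8.49 percent lower without overlap. For each of these 5 genes the exact two-sided permutation test over the 6 arrays gave p = 0.1, the smallest that 3 arrays against 3 can give. For HIF1A, EGLN1, EGLN3, PDK1, BNIP3 and ANKRD37 together, the limma 95% intervals ran no lower than -0.29 (HIF1A) and no higher than 0.16 (EGLN3). Missing the threshold does not show that these levels were equal. Each interval describes the difference that these arrays allow for its own gene, at 95% per gene and not for all together. The interval of EGLN3, with its signal near background, does not bound a difference in transcript level. RNA was taken from whole cultures, so fewer cells with a transcript and less of it per cell cannot be told apart.

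**Figure D2:**
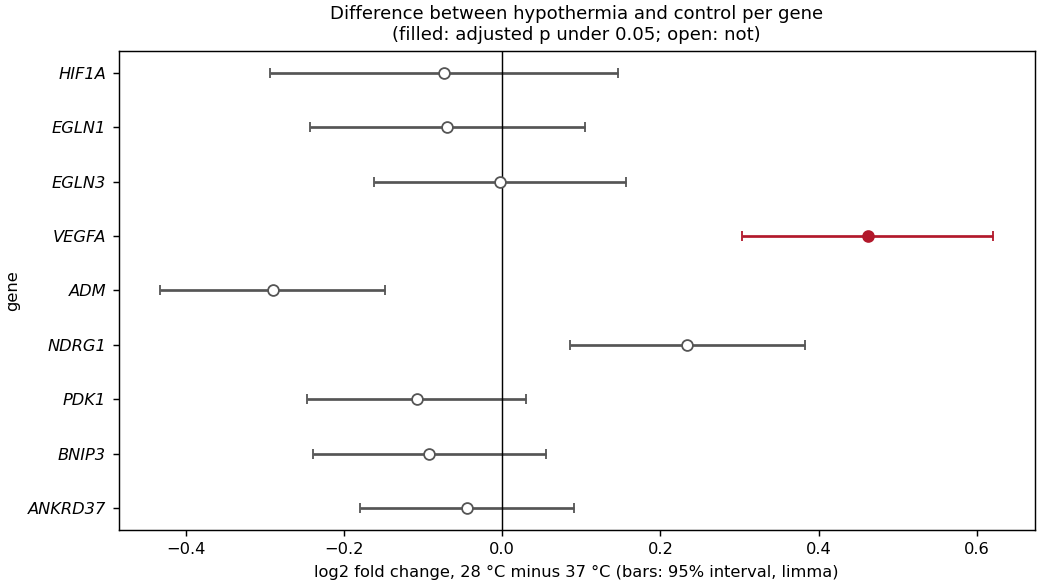
Log2 fold change of each measured hypoxia-responsive gene, 28 °C minus 37 °C, with its limma 95% interval. VEGFA is the only filled point (adjusted p under 0.05), at 0.46, ADM lies at -0.29 and NDRG1 at 0.23, and the intervals of the other 6 genes cross 0.

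The other genes of the pathway were read in 4 lists, with 64 of 69 genes measured. Of these 64, 3 were higher at 28 °C, 0 were lower and 61 did not pass, with a median log2 fold change of 0.04. Over all 22411 genes, 0.428 percent were higher and 0.772 percent lower, with a median of 0.03. All 3 stood among the 49 measured genes of the 3 lists of HIF target genes, and the 15 measured genes of the pathway's machinery held none. At an unadjusted p under 0.05 from limma, 11 of the 64 were higher and 5 lower, beside 1211 and 2083 of all 22411 genes. These lists were chosen with earlier results of these data known, so the counts are no result about the pathway.

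In the machinery that builds, marks and degrades HIF, 0 of 15 genes passed in either direction, with 1 higher and 1 lower at an unadjusted p under 0.05 from limma and a median of -0.003. HIF1AN, an asparaginyl hydroxylase that blocks HIF from binding its coactivators, had means of 6.93 ± 0.0290 at 28 °C and 7.15 ± 0.0820 at 37 °C (SD, n = 3 each), a difference of -0.22 (limma, adjusted p = 0.26). SIAH1, a ubiquitin ligase that degrades prolyl hydroxylases, had means of 4.36 ± 0.0453 at 28 °C and 4.15 ± 0.0676 at 37 °C (SD, n = 3 each), a difference of 0.20 (limma, adjusted p = 0.286). The other HIF subunits are given for their role. Of these, HIF3A differed by 0.07 and ARNT2 by -0.003. EPAS1, an alpha subunit like HIF1A, differed by 0.10 (95% interval -0.07 to 0.26) and ARNT, the stable partner, by -0.12 (95% interval -0.26 to 0.02), and VHL, which captures the marked subunit, differed by -0.05.

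Among the HIF target genes of glucose metabolism, 2 of 20 measured genes were higher at 28 °C and 0 lower. HK2, a hexokinase that traps glucose in the cell, had signals of 7.07, 7.01 and 7.06 at 28 °C and of 6.64, 6.63 and 6.62 at 37 °C. All its hypothermia arrays lay above all control arrays, and the log2 fold change was 0.42 with an SE of 0.06 (limma, adjusted p = 0.025). PFKFB3, which makes the activator of phosphofructokinase, had signals of 7.34, 7.33 and 7.37 at 28 °C and of 7.00, 6.79 and 6.86 at 37 °C. Its hypothermia arrays also all lay above its control arrays, with a log2 fold change of 0.46 and an SE of 0.07 (limma, adjusted p = 0.0372). Neither call was firm against the loss of an array. HK2 held only without control replicate 3 (adjusted p = 0.0389) and lay between 0.0715 and 0.123 without any of the other 5 arrays, and PFKFB3 lost its call without each of the 6 in turn (0.0585 to 0.154, limma).

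The rest of the glucose list did not pass. SLC2A3, a glucose transporter, had means of 7.84 ± 0.138 at 28 °C and 7.46 ± 0.0929 at 37 °C (SD, n = 3 each), a difference of 0.39 (limma, adjusted p = 0.132). PFKFB4, an enzyme of the PFKFB3 family, had means of 5.91 ± 0.0587 at 28 °C and 5.68 ± 0.135 at 37 °C (SD, n = 3 each), a difference of 0.23 (limma, adjusted p = 0.351). The median of the 20 genes was 0.04, LDHA, the enzyme that makes lactate, had the lowest value at -0.12, and 6 genes were higher and 0 lower at an unadjusted p under 0.05 (limma).

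Among the HIF target genes of vessels and matrix, 0 of 15 passed, with 2 higher and 2 lower at an unadjusted p under 0.05 from limma and a median of 0.05. PGF, a growth factor of the VEGFA family, had signals of 6.44, 6.49 and 6.43 at 28 °C and of 6.14, 6.00 and 6.22 at 37 °C. The groups did not overlap, and the difference was 0.33 (limma, adjusted p = 0.123). PLOD2, which modifies lysines of collagen, had means of 9.20 ± 0.0261 at 28 °C and 9.50 ± 0.255 at 37 °C (SD, n = 3 each), a difference of -0.30 (limma, adjusted p = 0.397), with control replicate 2 highest at 9.77. The difference of PLOD2 was -0.165 without control replicate 2 and -0.08 with the mean of the brighter background features as a covariate in limma.

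The list of HIF target genes of mitochondria, pH and feedback held the change of largest size among the 64 genes. BHLHE40, a transcriptional repressor that also acts in the circadian clock, had signals of 7.68, 7.51 and 7.41 at 28 °C and of 6.22, 6.06 and 6.14 at 37 °C. The lowest hypothermia array stood 1.19 above the highest control array. The log2 fold change was 1.40 with an SE of 0.09 (limma, adjusted p = 0.00178), or 2.63-fold with a 95% interval of 2.29 to 3.03, and BHLHE40 passed without each of the 6 arrays in turn. No other gene of the 14 measured passed, with 2 higher and 2 lower at an unadjusted p under 0.05 from limma and a median of -0.01. INSIG2, a membrane protein that restrains sterol synthesis, had signals of 5.08, 5.06 and 5.08 at 28 °C and of 5.33, 5.91 and 5.36 at 37 °C, a difference of -0.46 (limma, adjusted p = 0.269) in which control replicate 2 stood apart. The difference of INSIG2 was -0.27 without that array, and -0.27 with that covariate. KDM3A, a histone demethylase, had means of 6.10 ± 0.0164 at 28 °C and 5.82 ± 0.0796 at 37 °C (SD, n = 3 each), a difference of 0.29 (limma, adjusted p = 0.13).

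**Figure D3:**
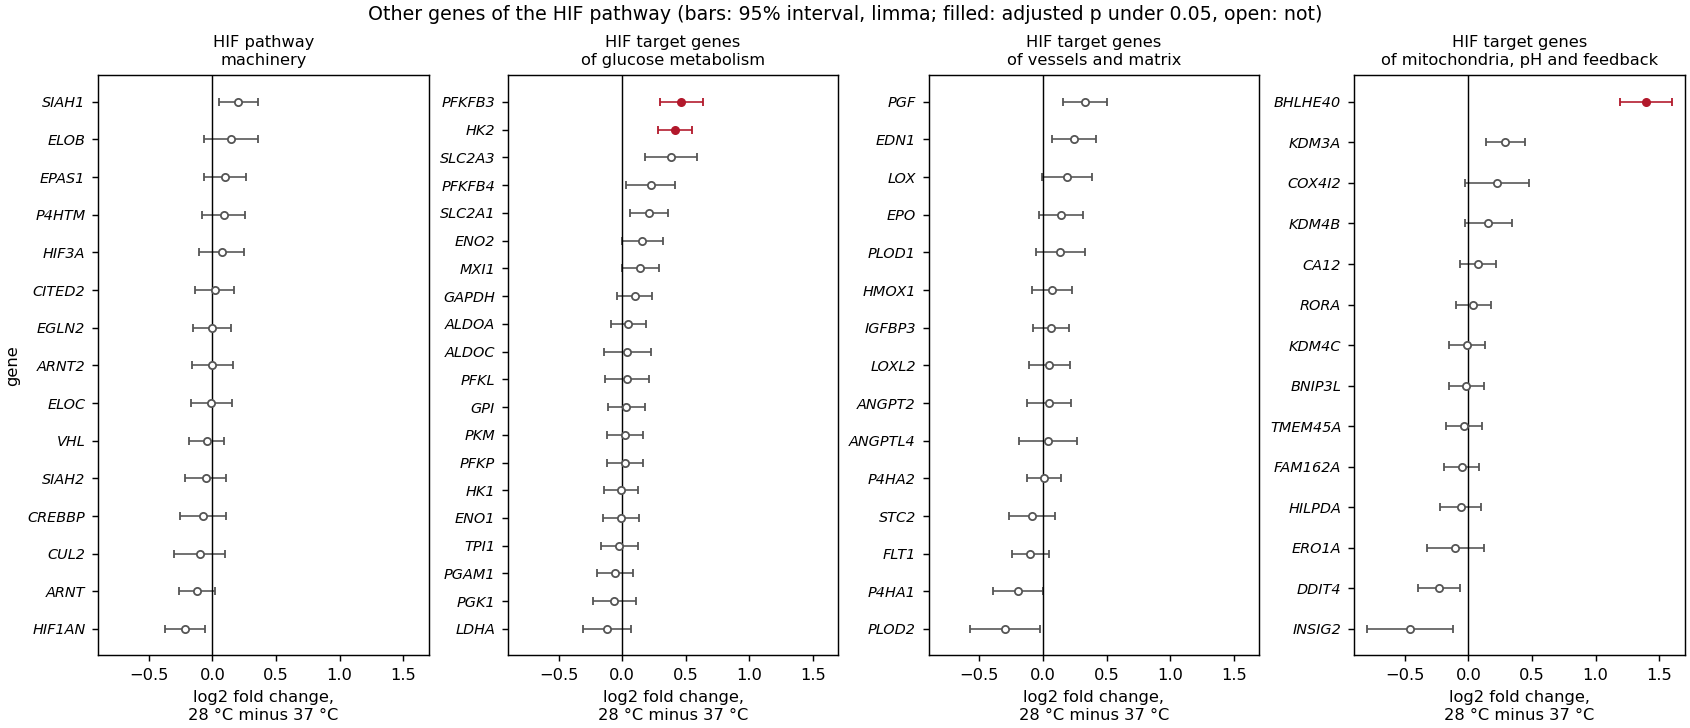
Log2 fold changes, 28 °C minus 37 °C, of 64 further genes of the HIF pathway in 4 lists, with limma 95% intervals. Filled points passed an adjusted p of 0.05: PFKFB3 at 0.46, HK2 at 0.42 and BHLHE40 at 1.40, and the machinery and the vessels and matrix lists hold no filled point.

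Background features of the brighter kind had a higher mean at 28 °C, as had VEGFA, NDRG1, HK2, PFKFB3 and BHLHE40, while PLOD2 and INSIG2 had a lower one. 23 features measure background, and the mean of the 10 brighter ones was 6.73, 6.72 and 6.82 in the hypothermia arrays and 6.51, 6.41 and 6.79 in the control arrays. The groups overlapped, since control replicate 3 stood with the hypothermia arrays. Control replicate 2, with the lowest value, was the array with the highest HIF1A, EGLN1, BNIP3, PDK1, PLOD2 and INSIG2. The same array had the lowest VEGFA, NDRG1, EGLN3, PFKFB3 and BHLHE40. In contrast, ADM was highest in control replicate 1 and ANKRD37 in control replicate 3. HK2 was lowest in control replicate 3, though its control signals lay close together, between 6.62 and 6.64. The median log2 fold change of these 10 features was 0.19 and none passed. With this mean as a covariate in limma, an alternative chosen after seeing the data, VEGFA had 0.42 (adjusted p = 0.14), HK2 0.42 (0.0967), PFKFB3 0.45 (0.161) and BHLHE40 1.40 (0.0286). HIF1A then stood at 0.08 and EGLN1 at 0.02, both turned in sign and neither past the threshold. ADM kept -0.29, and the SE of VEGFA was 0.0785 with the covariate, beside 0.0685 without it.

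The arrays' medians lay between 3.33 and 3.41 and no pair of arrays held identical values, and the number of arrays limits the precision. Of 14 measured cardiomyocyte markers 10 had a mean signal above the median of all features, the natriuretic peptide gene NPPB (9.14) and the transcription factor gene GATA4 (6.80) among them. The 4 below it were RYR2, PLN, TTN and ACTN2. Other sarcomere genes of the list, TNNI3, MYH6, MYH7, MYL2, MYL7 and ACTC1, lay above it (3.66 for MYL2 to 5.53 for ACTC1). Of 9 fibroblast markers 8 lay above that median, as did 5 of 8 endothelial markers (2.67 for PECAM1 to 6.31 for EGFL7) and 5 of 9 leukocyte markers (2.19 for PTPRC to 8.55 for CD68). Of all 22411 genes 15728 lay above it too, so these counts describe levels and are not evidence of a cell type. None of the markers in these 4 lists passed the threshold, and the ranges of the summed log2 signal overlapped in each list. For cardiomyocyte markers they were 62.6 to 62.9 at 28 °C and 61.1 to 62.7 at 37 °C. For fibroblast markers they were 71.2 to 71.5 at 28 °C and 70.6 to 71.8 at 37 °C. At an unadjusted p under 0.05 from limma 1 cardiomyocyte marker was higher at 28 °C and 0 markers of the other 3 lists differed.

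**Figure D4:**
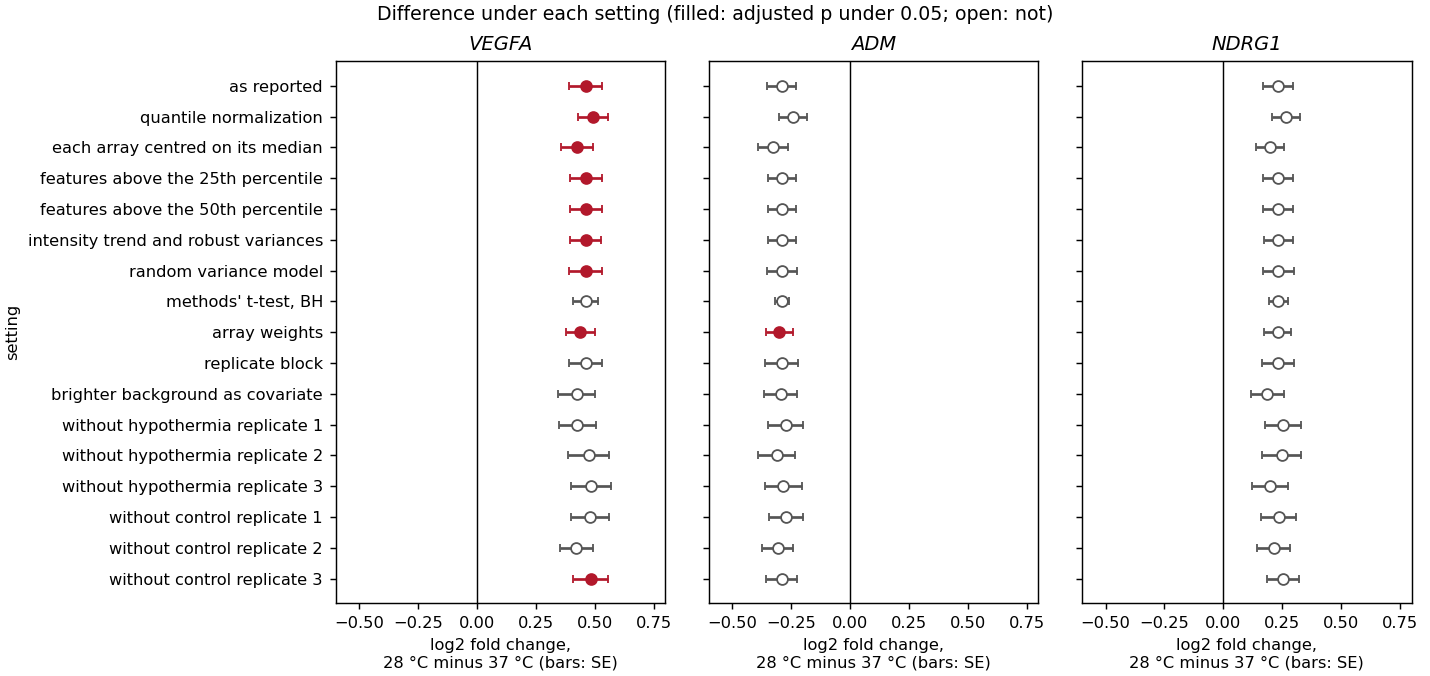
Log2 fold change of VEGFA, ADM and NDRG1, 28 °C minus 37 °C, as reported and under the 16 alternatives, with bars for the SE and filled points for an adjusted p under 0.05. VEGFA stays between 0.42 and 0.49 and is filled in 8 alternatives, ADM is filled only with array weights, and NDRG1 is filled in none.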

How the data were processed

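Total RNA of AC16 cells was measured on 6 arrays, 3 of hypothermia and 3 of control. The values the authors deposited are log2 signals from RMA, used without further scaling (RMA version and settings: not given in the sources used here). Of the features, 23781 had 1 gene symbol, 1543 several and 45199 none, and only the first kind named genes, with symbols brought up to date through a RefSeq gene table of GRCh38.p14. The test was limma 3.58.1, run in R 4.3.3 with lmFit and eBayes on every feature, with no term besides the group, and it was two-sided. The text names all members and, from each of the 4 pathway lists, every gene past the threshold and the 2 with the largest difference among those that did not pass and had a mean signal above the median of all features. EPAS1, HIF3A, ARNT, ARNT2, VHL, LDHA and the cell type markers were named besides, with their values seen. The members and lists were chosen with earlier results of these data known.

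Alternatives in scaling were quantile normalization and median-centred arrays, and low features were dropped below the 25th or the 50th percentile of mean signal. Alternatives in testing were robust variances with an intensity trend, the methods' random variance model and t-test, array weights and a replicate block. Other thresholds and leaving out each array were further alternatives. The methods name the random variance model for the array comparison and Student's t-test for the data in general. A covariate for brighter background features (those with a mean above the median of all features) and the lists of relatives of the members were chosen after seeing the data. The fits were tested on simulated data. A promoter stretch of 1 member is not reported here. The mean over several features of a gene was not needed, since each member had 1.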

Additional observations from a re-analysis of the deposited data

How the results depend on the processing

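As reported, 160 features were higher and 417 lower at 28 °C, with 1 member higher and 0 lower. With only features above the 50th percentile of mean signal there were 249 and 628, and with array weights 379 and 1107, where 1 member (ADM) was lower. The random variance model, which the methods name for the array comparison, called 172 and 447 after Benjamini-Hochberg (1 member higher, 0 lower). Student's t-test, which the methods name for the data in general, called 3479 and 3708 without adjustment (2 members higher, 2 lower). After Benjamini-Hochberg this t-test called 0 and 0 (0 members higher). An adjusted p under 0.01 (limma) left 48 and 100 with 0 members higher, and one under 0.1 gave 308 and 775. With the brighter background as a covariate, chosen after seeing the data, 59 and 96 passed with 0 members higher, and HIF1A (0.0767) and EGLN1 (0.0237) turned positive. Leaving out 1 array at a time gave 60 to 214 higher and 112 to 799 lower features and 0 to 1 members higher. The log2 fold change of HIF1A then ranged from -0.152 to 0.0212, positive without control replicate 2 only, and that of EGLN3 from -0.0429 to 0.0405, positive without hypothermia replicate 1 (0.00252), hypothermia replicate 2 (0.0139) or control replicate 3 (0.0405). Filters test fewer features and left-out arrays leave fewer samples. Among the fits that left out 1 array, the most calls, 214 higher and 799 lower, came without control replicate 3. The cause of these changes was not tested.

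With the replicate number as a block, 122 features were higher and 304 lower, and 0 members were higher, since VEGFA had an adjusted p of 0.0655 (limma). HK2 (0.0748) and PFKFB3 (0.0757) lost their calls under the block too. The labels share only a number: deviations of same-numbered arrays from their group means correlated at -0.08, 0.11 and 0.22 across features, and 3 of 6 arrays correlated best with their own number.

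VEGFA, ADM, BNIP3, NDRG1, ANKRD37 and PDK1 kept their sign in all 16 alternatives run. HK2 passed in 8, PFKFB3 in 6 and BHLHE40 in 15 of 16, and PGF (adjusted p = 0.0424) and KDM3A (0.0434) passed only with array weights (limma). Signal near background limits EGLN3.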

Other observations

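Relatives and partners of the members were read in lists chosen after the data had been seen. 29 of 31 such genes were measured and 0 passed the threshold in either direction (limma), with 3 higher and 1 lower at an unadjusted p under 0.05 and a median log2 fold change of 0.02. Of all 22411 genes, 1211 were higher and 2083 lower at that unadjusted p. In the VEGF family, PGF and VEGFC had differences of opposite sign, and neither passed. VEGFC, a growth factor of lymphatic vessels, had signals of 7.10, 7.06 and 6.95 at 28 °C and of 7.55, 7.62 and 7.31 at 37 °C. All hypothermia arrays lay below all control arrays, and the log2 fold change of -0.46 had an SE of 0.09 and an adjusted p of 0.0911 (limma). PGF differed by 0.33 (limma, adjusted p = 0.123), VEGFB by 0.10, VEGFD by -0.01 and the receptor genes FLT1, KDR, FLT4, NRP1 and NRP2 by -0.10, -0.01, 0.08, -0.06 and -0.05, and limma's adjusted p-values of these last 7 genes lay between 0.589 and 0.979.

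Genes for the adrenomedullin receptor, CALCRL and RAMP1 to RAMP3, and the related peptide gene ADM2 all had differences between 0.01 and 0.14, none past the threshold, and CALCRL lay at 2.07 at 28 °C and 2.06 at 37 °C, under the median of the background features on every array. The other NDRG genes differed by -0.16 (NDRG3), 0.04 (NDRG2) and 0.07 (NDRG4). PDP1, a phosphatase that reverses the action of PDK1, had signals of 7.06, 6.95 and 6.96 at 28 °C and of 6.76, 6.89 and 6.64 at 37 °C, a difference of 0.23 (limma, adjusted p = 0.33). GABARAPL1, which helps to wrap mitochondria marked by proteins such as BNIP3, had a difference of 0.27 (limma, adjusted p = 0.209), and BNIP3L, a close relative of BNIP3, one of -0.02.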
